A study of Mus musculus with 10 samples.

Results

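The suppressor of cytokine signaling (SOCS) family of the mouse consists of Cish, which encodes CIS, and of Socs1, Socs2, Socs3, Socs4, Socs5, Socs6 and Socs7. These 8 genes, picked by their symbols, were all present among the 24981 genes of the RNA sequencing tables. Expression was available for 10 libraries of BALB/c mice in 4 groups. Liver ILC1, sorted as CD3- NKp46+ DX5dim TRAIL+ cells, came from mice given tofacitinib (2 libraries) or vehicle (3 libraries). Splenic NK cells, sorted as CD3- NKp46+ cells, likewise came from mice given tofacitinib (2 libraries) or vehicle (3 libraries). Tofacitinib, an inhibitor of JAK1 and JAK3, was given by mouth at 30 mg/kg 2 times per day for 7 days, and control mice received its carrier, methyl cellulose, on the same schedule. The sources used here give no age or sex of the mice. Each library held cells pooled from several mice, so p-values refer to pools and not to single mice.

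Cytokines such as IL-15, on which NK cells and ILC1 depend, activate Janus kinases, which phosphorylate STAT transcription factors. STATs in turn induce some of the SOCS genes, and the encoded proteins close a negative feedback loop. All SOCS proteins bind phosphotyrosine through an SH2 domain and carry a SOCS box that recruits a ubiquitin ligase built on Elongin B, Elongin C and Cullin 5. CIS, SOCS1, SOCS2 and SOCS3 are the members best known as cytokine-induced inhibitors of JAK-STAT signaling, and CIS restrains the response of NK cells to IL-15. SOCS4, SOCS5, SOCS6 and SOCS7 are better known from the signaling of receptor tyrosine kinases and the insulin receptor than from cytokine feedback.

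Because STAT dimers bind DNA at the palindrome TTCNNNGAA, the start regions of the members were searched for it. RefSeq promoter windows of 300 bases on GRCm38.p6 were at hand for 4 members, namely Cish, Socs1, Socs3 and Socs4. The pattern reads the same on both strands, so that 1 search covers both, and it occurred in 8.30% of the 32851 windows of all genes. The Cish window held 2 matches and the Socs3 window held 1, whereas no match was found in the windows of Socs1 and Socs4. A window with 2 or more matches was found for 0.457% of all windows. The stretches with the matches of both genes are shown with the matches in capitals. That of Cish lies at chr9:107296654-107296683 on the plus strand. Its first match begins at the annotated RefSeq start, the second begins 11 bases further on, and both lie in an exon of 1 annotated transcript. That of Socs3 lies at chr11:117969502-117969531 on the minus strand, in an intron of 1 annotated transcript, with its match at -154 from the RefSeq start. A match is a description of the letters and not a measurement of binding.
Cish: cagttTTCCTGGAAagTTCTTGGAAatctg
Socs3: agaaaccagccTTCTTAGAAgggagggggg

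The libraries held 29199973 to 79258362 alignments. The sorted populations carried their defining transcripts: Eomes, the transcription factor of NK cells, was at 2.44 to 6.29 RPKM in ILC1 and at 173 to 212 RPKM in NK cells, and Tnfsf10, which encodes TRAIL, was at 51.5 to 84.9 RPKM in ILC1 and at 4.39 to 5.26 RPKM in NK cells. RPKM is a read number divided by exon length and by sequencing depth. In ILC1, tofacitinib replicate 1 and vehicle replicate 2, which shared a sequencing run, stood apart with a median RPKM of the genes tested of 8.94 and 7.58, while the other 3 ILC1 libraries were at 11.9 to 13.2. Tofacitinib replicate 2 and vehicle replicate 3 shared another run, and vehicle replicate 1 was alone in its run. Since the medians of the ILC1 libraries differed this way, the changes of the members in ILC1 are given also within the shared runs. In NK cells the medians were 12.4 to 12.9 RPKM.

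With tofacitinib, Socs1, Socs2 and Socs3 were called lower in NK cells and Cish was called lower in ILC1, and no change was called for Socs4 to Socs7 in either cell type. In NK cells 7 members were tested, since Cish was below the level filter, and no tested member was called higher. The calls made 3 of 7 tested members lower, beside 3.02% of the 9472 genes tested, of which 4.81% were called in either direction. Socs2 entered this test only through the vehicle group, where it was higher, so that the count is a description and no support for the group. In ILC1 the call of Cish made 1 of 8 members, beside 0.278% of the 9366 genes tested. Changes are given as log2 differences on the scale of log2(RPKM + 0.1), which understates the change of low genes. A change was called at an adjusted p under 0.05 in limma, with the Benjamini-Hochberg method over all genes tested. In ILC1 the variance that limma used was wholly the trend shared across genes. With the own variance of each gene the ILC1 SE was 0.51 for Cish, 0.67 for Socs1, 0.44 for Socs2 and 0.92 for Socs3. In the main fit it was 0.51, 0.52, 0.51 and 0.48. The median change over the tested members was -0.14 in ILC1 and 0.04 in NK cells, and over all genes tested it was 0.01 in ILC1 and -0.01 in NK cells. In these bulk samples, fewer cells of a type and less RNA per cell cannot be told apart.

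**Figure D1:**
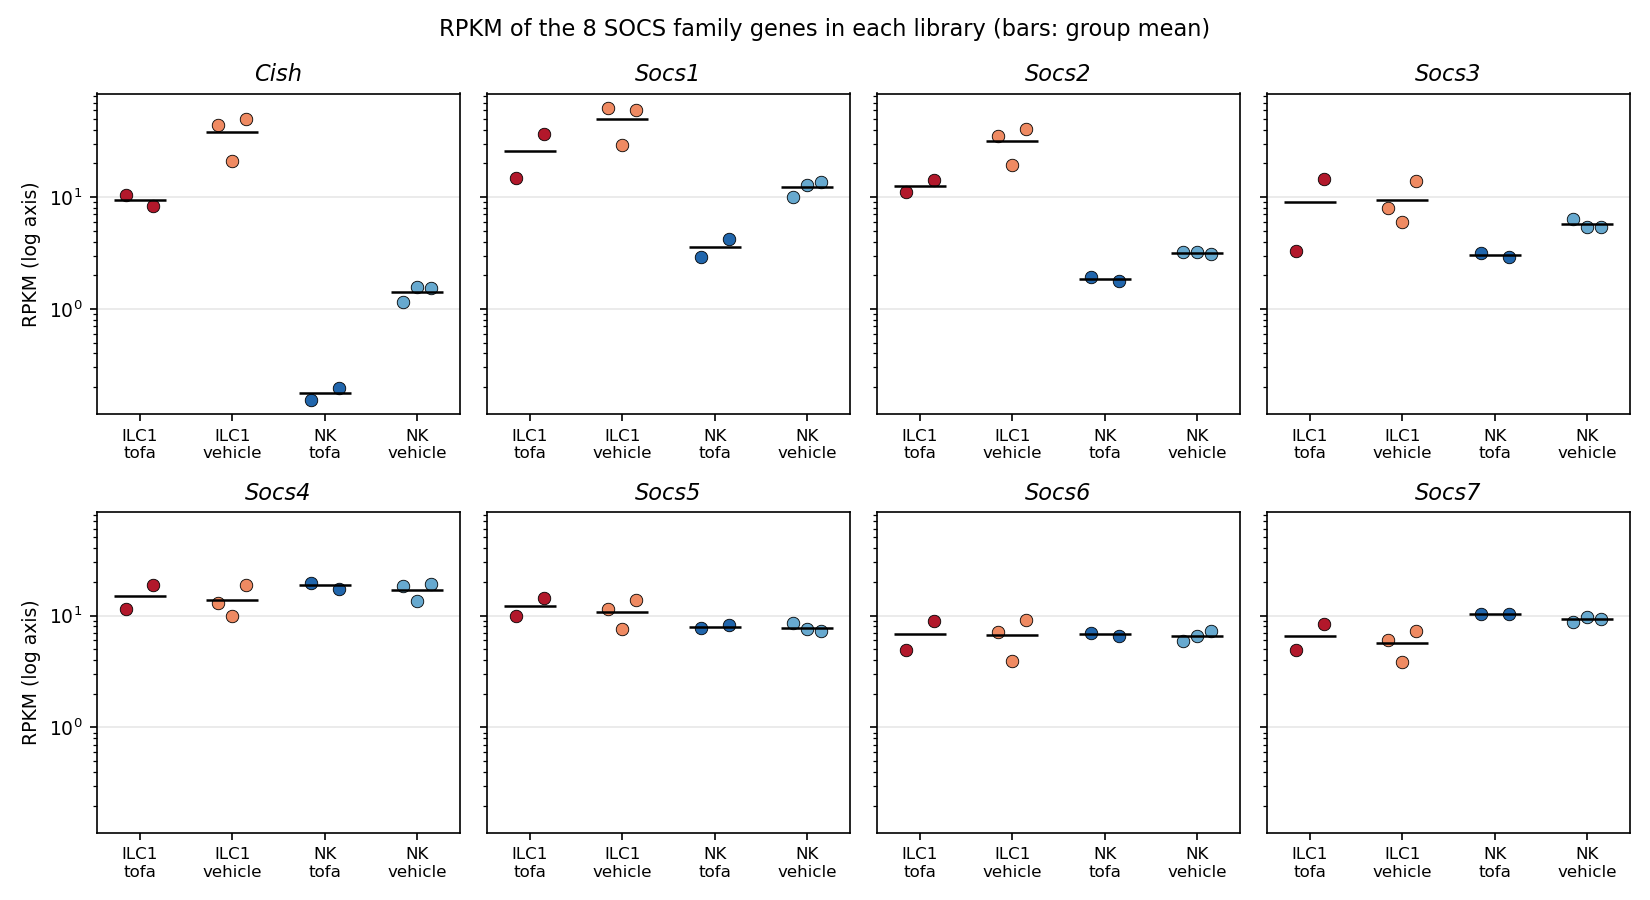
RPKM of each of the 8 genes (log axis) in the libraries of the 4 groups, with 1 point per library in replicate order and a bar at the group mean. The tofacitinib points of Cish and Socs2 lie below every vehicle point in both cell types, those of Socs1 and Socs3 do so in NK cells, and those of Socs4 to Socs7 lie near the vehicle points.

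Cish, at 9:107296026-107302784 on mm10, had 10.4 and 8.36 RPKM in tofacitinib ILC1, against 44.4, 21.1 and 49.7 RPKM in vehicle ILC1. In tofacitinib ILC1 both libraries thus lay below the lowest vehicle library, which was replicate 2 of the run with low medians. Cish fell by 1.94 on the log2 scale (SE 0.51, 95% interval -2.93 to -0.94, adjusted p = 0.0348 in limma), to a mean of 9.37 ± 1.43 RPKM in tofacitinib ILC1 (SD, n = 2) against 38.4 ± 15.2 RPKM in vehicle ILC1 (SD, n = 3). The direction was the same within both shared runs. The difference was -1.02 between tofacitinib replicate 1 and vehicle replicate 2 and -2.56 between tofacitinib replicate 2 and vehicle replicate 3. With the run as a block the change was -1.79 (adjusted p = 1.68e-12 in limma, with 2.34% of genes called lower). That fit has few residual degrees of freedom, and its p rests, as in the main ILC1 fit, on the variance shared across genes. The call did not hold when tofacitinib replicate 1 was left out (-2.09, adjusted p = 0.641), nor without tofacitinib replicate 2 (-1.78, adjusted p = 1), vehicle replicate 1 (-1.79, adjusted p = 1) or vehicle replicate 3 (-1.71, adjusted p = 0.900), all in limma. Without vehicle replicate 2 it was kept, at -2.32 (adjusted p = 1.62e-06 in limma).

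In NK cells Cish was the lowest of the 8 genes in every library. It had 0.154 and 0.198 RPKM in tofacitinib NK cells, against 1.14, 1.57 and 1.53 RPKM in vehicle NK cells. Here too all tofacitinib values lay below all vehicle values, as they did for Cish and Socs2 in ILC1 and for Socs1, Socs2 and Socs3 in NK cells. Of the 7 members tested in NK cells 3 lay below in this way, beside 23.9% of the genes tested. With Cish it was 4 of 8, beside 13.5% of all genes without the level filter. In ILC1 it was 2 of 8, beside 3.43% of the genes tested. Both NK groups were under the level needed for testing, a group mean of log2(RPKM + 0.1) above 1, so that Cish had no test of its own in NK cells. When the genes that pass in either cell type were tested, a choice made after seeing the data in which Cish passes through ILC1, its change in NK cells was -2.45 (SE 0.27, 95% interval -3.06 to -1.83, adjusted p = 0.00434 in limma), and 2.52% of the genes in that test were called lower. With no filter at all its adjusted p in limma was 0.0997, and 0 of 20988 genes were called. The read numbers behind these values are small. With the longest annotated transcript of 2850 bases, the values correspond to about 35 to 40 reads per tofacitinib library and 127 to 252 per vehicle library, and fewer with a shorter one. An antisense gene, Gm17041, and a pseudogene, Gm17040, overlap Cish exons on the opposite strand, and the sources used here do not state that reads were counted by strand, so their reads cannot be told apart from those of Cish.

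Socs1, at 16:10782240-10785536, encodes the strongest direct inhibitor of Janus kinases in the family and limits interferon gamma signaling. It had 2.94 and 4.26 RPKM in tofacitinib NK cells, against 9.96, 12.9 and 13.7 RPKM in vehicle NK cells. Socs1 fell by 1.74 on the log2 scale in NK cells (SE 0.18, 95% interval -2.15 to -1.34, adjusted p = 0.00234 in limma), the largest change among the 7 members tested there, and the call was kept when each NK library was left out in turn. In ILC1 Socs1 had 14.95 and 37.0 RPKM in tofacitinib libraries, against 62.6, 29.1 and 59.7 RPKM in vehicle libraries. These groups overlapped, because tofacitinib replicate 2 lay above vehicle replicate 2. The change was -1.02 (SE 0.52, 95% interval -2.04 to 0.005, adjusted p = 1 in limma) and did not pass the test. Within the shared runs it was -0.96 and -0.69, and with the run as a block it passed (-0.82, adjusted p = 0.0107 in limma). The size depended on single libraries, at -0.37 without tofacitinib replicate 1 and -1.67 without tofacitinib replicate 2.

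Socs2, at 10:95385362-95417180, is best known as the brake on growth hormone signaling through STAT5. In ILC1 it had 11.1 and 14.1 RPKM with tofacitinib, against 35.3, 19.5 and 40.4 RPKM with vehicle, and the groups did not overlap. The change of -1.27 (SE 0.51, 95% interval -2.26 to -0.27) missed the threshold (unadjusted p = 0.0126, adjusted p = 0.911 in limma). It passed with the run as a block (-1.16, adjusted p = 3.76e-05), after scaling the libraries to 1 median (-1.28, adjusted p = 0.00783, with 2.18% of genes called lower) and without vehicle replicate 2 (-1.58, adjusted p = 0.00644), all in limma. Within the shared runs the differences were -0.80 and -1.51. In NK cells Socs2 had 1.93 and 1.80 RPKM with tofacitinib, against 3.26, 3.22 and 3.10 RPKM with vehicle. Socs2 fell by 0.75 on the log2 scale in NK cells (SE 0.14, 95% interval -1.07 to -0.42, adjusted p = 0.0254 in limma). Its mean of log2(RPKM + 0.1) was 0.97 in tofacitinib NK cells, so Socs2 entered the test through the vehicle group alone. The call depended on tofacitinib replicate 1 (without it -0.80, adjusted p = 0.206), on tofacitinib replicate 2 (-0.70, adjusted p = 0.203) and on vehicle replicate 1 (-0.73, adjusted p = 0.0784) in limma.

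Socs3, at 11:117966079-117970047, is induced by STAT3 and binds the shared receptor chain of the IL-6 family. In NK cells it had 3.20 and 2.94 RPKM with tofacitinib, against 6.36, 5.43 and 5.42 RPKM with vehicle, with no overlap. Socs3 fell by 0.88 on the log2 scale in NK cells (SE 0.12, 95% interval -1.16 to -0.60, adjusted p = 0.00765 in limma). The adjusted p in limma was 0.0697 without tofacitinib replicate 1 and 0.0764 without tofacitinib replicate 2. In ILC1 Socs3 was the member that differed most between the tofacitinib libraries, at 3.27 and 14.7 RPKM, against 8.05, 6.01 and 14.0 RPKM with vehicle. Tofacitinib replicate 1 was the lowest and tofacitinib replicate 2 the highest of the 5 libraries. The change was -0.33 (SE 0.48, 95% interval -1.27 to 0.60, adjusted p = 1 in limma), and turned to 0.73 without tofacitinib replicate 1. The differences within the shared runs were -0.86 and 0.06.

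In NK cells the sample sheets give a replicate letter, of unstated meaning, that tofacitinib replicate 1 shares with vehicle replicate 2 and tofacitinib replicate 2 with vehicle replicate 3. Between libraries of the same letter the log2 difference was -2.72 and -2.45 for Cish, -2.10 and -1.66 for Socs1, -0.71 and -0.76 for Socs2, and -0.75 and -0.86 for Socs3. All of these lay below 0 in both pairs, beside a median over all genes tested of -0.04 in the first pair and 0.01 in the other.

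**Figure D2:**
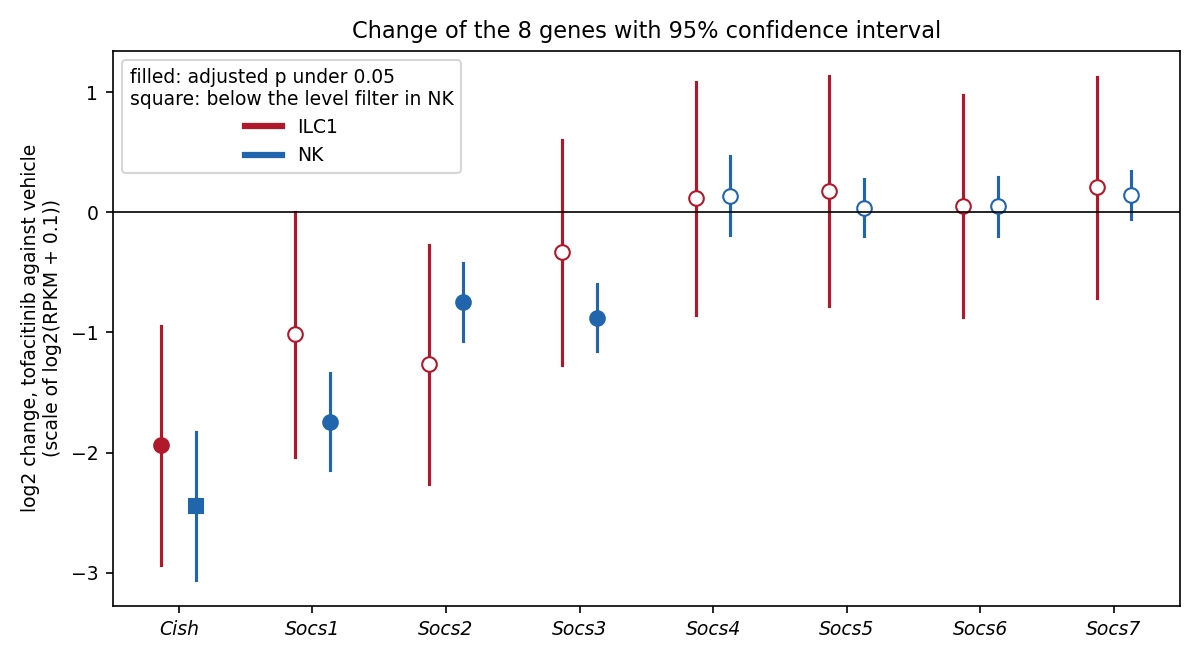
Log2 change of each gene between tofacitinib and vehicle on the scale of log2(RPKM + 0.1), with its 95% confidence interval from limma, in ILC1 (red) and NK cells (blue). Filled symbols passed the adjusted p of 0.05, and the square is Cish in NK cells, below the level filter and tested in the wider gene set. The ILC1 intervals are wider than those of NK cells, and the changes of Socs4 to Socs7 lie near 0.

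The other 4 members showed no called change in either cell type. Socs4, whose protein is known to limit signaling of the epidermal growth factor receptor, had 11.4 and 18.7 RPKM in tofacitinib ILC1 against 12.9, 9.89 and 18.9 RPKM in vehicle ILC1. In NK cells Socs4 had 19.8 and 17.4 RPKM with tofacitinib against 18.5, 13.6 and 19.0 RPKM with vehicle. The groups overlapped in both cell types. Socs5, which also acts on that receptor, had 9.89 and 14.4 RPKM in tofacitinib ILC1 against 11.4, 7.53 and 13.7 RPKM in vehicle ILC1. In NK cells Socs5 had 7.74 and 8.25 RPKM with tofacitinib against 8.61, 7.54 and 7.26 RPKM with vehicle, again with overlap. Socs6, whose protein binds the receptor KIT and insulin receptor substrates, had 4.89 and 8.88 RPKM in tofacitinib ILC1 against 7.16, 3.94 and 9.09 RPKM in vehicle ILC1. In NK cells Socs6 had 7.05 and 6.56 RPKM with tofacitinib against 5.99, 6.57 and 7.22 RPKM with vehicle. Tofacitinib and vehicle overlapped for Socs6 too, in both cell types. Socs7, which encodes an adaptor that binds NCK, had 4.88 and 8.36 RPKM in tofacitinib ILC1 against 6.01, 3.84 and 7.27 RPKM in vehicle ILC1. In NK cells Socs7 had 10.3 RPKM in both tofacitinib libraries against 8.77, 9.75 and 9.43 RPKM in vehicle libraries. There the tofacitinib values lay above the vehicle values, as they did for 20.2% of the genes tested in NK cells.

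The 95% intervals show how much change of these 4 genes the data leave room for. In NK cells the changes were 0.14 (-0.19 to 0.46) for Socs4, 0.04 (-0.20 to 0.27) for Socs5, 0.05 (-0.20 to 0.30) for Socs6 and 0.14 (-0.06 to 0.34) for Socs7, with adjusted p from 0.367 to 0.859 in limma. All 4 intervals lie above -0.42, the upper bound of the Socs2 interval in NK cells. In ILC1 the changes were 0.12 (-0.85 to 1.09) for Socs4, 0.18 (-0.78 to 1.13) for Socs5, 0.05 (-0.87 to 0.98) for Socs6 and 0.21 (-0.71 to 1.13) for Socs7, with an adjusted p of 1 for each in limma. The ILC1 intervals reach down to -0.71 or lower for each of the 4 genes and overlap those of Socs1, Socs2 and Socs3, so that moderate falls were not detectable at this spread. Within the shared runs the ILC1 differences of these 4 genes were 0.20 to 0.39 in the run of tofacitinib replicate 1 and -0.03 to 0.20 in the run of tofacitinib replicate 2. The median over all genes tested was 0.22 in the first of these runs and -0.03 in the other, and scaling the libraries to 1 median brought the 4 genes to -0.04 to 0.15 and 0.01 to 0.25.

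**Figure D3:**
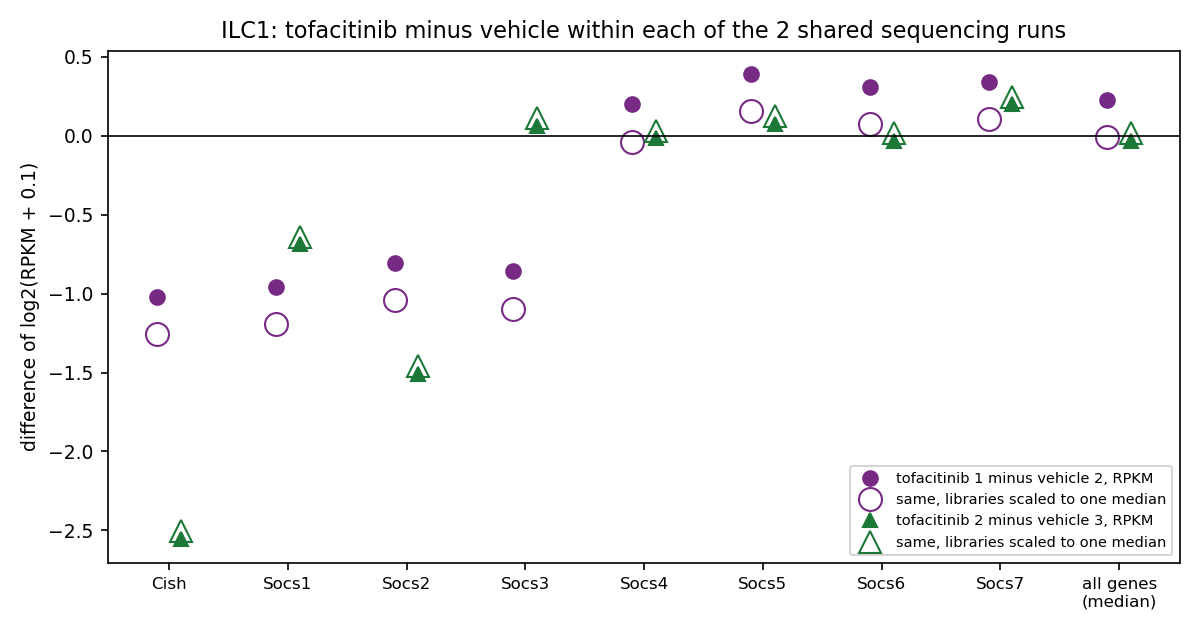
Difference of log2(RPKM + 0.1), tofacitinib minus vehicle, between the ILC1 libraries of each shared sequencing run, for the 8 genes and for the median of all genes tested. Small filled symbols are RPKM as deposited and large open symbols are RPKM scaled to 1 median. Cish, Socs1 and Socs2 lie below 0 in both runs, Socs3 lies at -0.86 in one and 0.06 in the other.

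A measure that does not depend on the scaling of a library is the ratio between members. The sum of Cish, Socs1, Socs2 and Socs3 was 1.28 and 1.47 times the sum of Socs4, Socs5, Socs6 and Socs7 in tofacitinib ILC1, against 4.02, 3.005 and 3.34 times in vehicle ILC1. In NK cells this ratio was 0.183 and 0.216 with tofacitinib, against 0.494, 0.618 and 0.553 with vehicle. The groups did not overlap in either cell type, and the 4 cytokine-induced genes outweighed the other 4 in every ILC1 library and in no NK library. The sum of Socs4 to Socs7 averaged 40.7 ± 13.7 RPKM in tofacitinib ILC1 (SD, n = 2) and 37.2 ± 11.9 RPKM in vehicle ILC1 (SD, n = 3). In NK cells it averaged 43.7 ± 1.61 RPKM with tofacitinib (SD, n = 2) and 40.8 ± 2.92 RPKM with vehicle (SD, n = 3). These are descriptions without a test, since the grouping of the members was made with earlier results known.

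**Figure D4:**
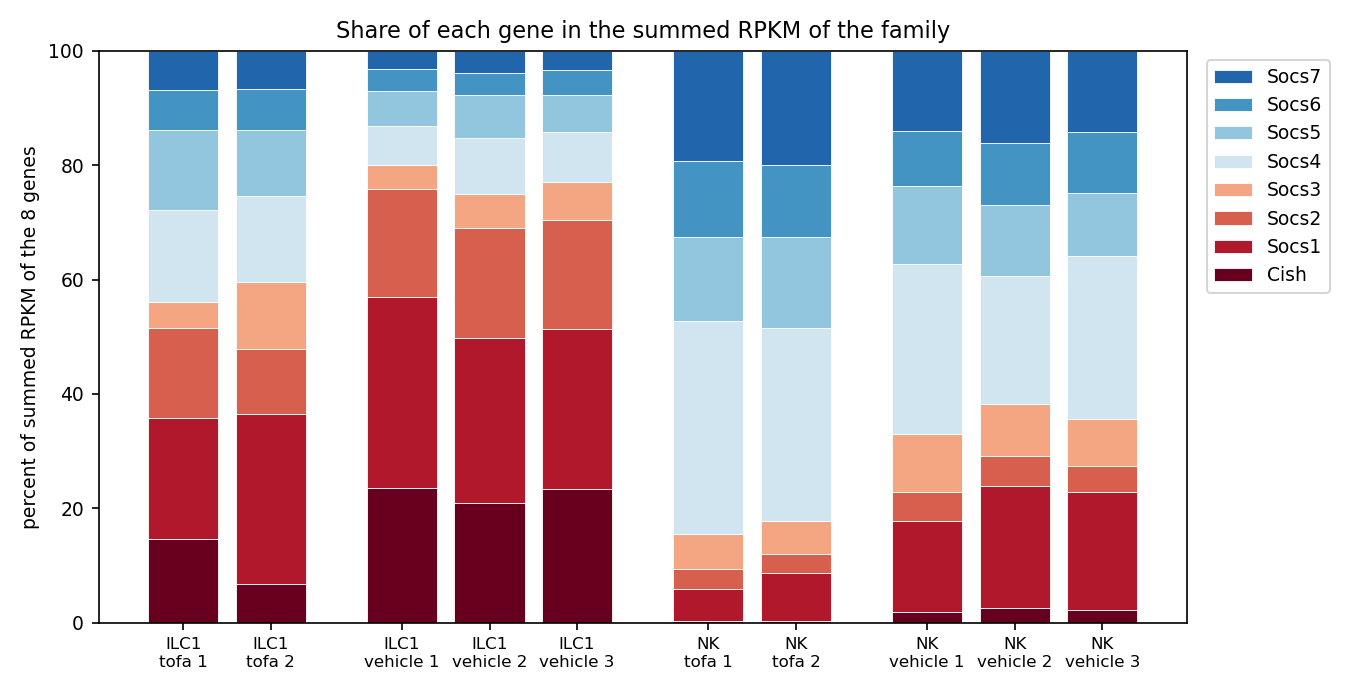
Share of each gene in the summed RPKM of the 8 genes, in percent, for each library (red tones, Cish and Socs1 to Socs3; blue tones, Socs4 to Socs7). Cish made up 14.7% and 6.71% in tofacitinib ILC1, against 20.9% to 23.6% in vehicle ILC1, and less than the other members in every NK library.

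The makeup of the family within a library also shifted. Cish stood at 0.694 and 0.226 of the Socs1 level in tofacitinib ILC1, against 0.709, 0.726 and 0.832 in vehicle ILC1. In NK cells it stood at 0.0526 and 0.0466 of the Socs1 level with tofacitinib, against 0.115, 0.122 and 0.112 with vehicle. Cish was thus lower relative to Socs1 with tofacitinib in all 4 treated libraries, though by little in tofacitinib replicate 1 of ILC1. Since RPKM is per length, the members can be ordered by level. In tofacitinib ILC1 the order of mean RPKM was Socs1, Socs4, Socs2, Socs5, Cish, Socs3, Socs6 and Socs7, and the neighbours from Socs2 down to Socs6 changed places between both libraries. In vehicle ILC1 it was Socs1, Cish, Socs2, Socs4, Socs5, Socs3, Socs6 and Socs7, and every neighbouring pair kept its order in all 3 libraries except Socs5 and Socs3, which kept it in 2. In tofacitinib NK cells it was Socs4, Socs7, Socs5, Socs6, Socs1, Socs3, Socs2 and Cish, with Socs1 and Socs3 in either order. In vehicle NK cells it was Socs4, Socs1, Socs7, Socs5, Socs6, Socs3, Socs2 and Cish, with Socs6 above Socs3 in 2 of 3 libraries. Cish ranked 5 of 8 by mean level in tofacitinib ILC1 and 2 of 8 in vehicle ILC1. Socs1 ranked 5 of 8 in tofacitinib NK cells and 2 of 8 in vehicle NK cells.

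Levels of ILC1 and NK cells are set side by side without a test, because the tables were normalized separately. The ILC1 came from liver and the NK cells from spleen, by different sort gates. Cell type, organ and gate cannot be told apart in these ratios. Markers of other cells also differed. Under vehicle, T cell markers summed to 130 to 259 RPKM in ILC1 and 15.9 to 19.4 RPKM in NK cells. B cell markers summed to 5.94 to 10.4 RPKM in vehicle ILC1 and 61.8 to 94.4 RPKM in vehicle NK cells. The part of such cells in the ratios was not tested. Mean Cish was 27.1 times as high in ILC1 as in NK cells under vehicle, Socs2 9.94 times, Socs1 4.14 times and Socs3 1.63 times. Socs4 was at 0.815, Socs5 at 1.39, Socs6 at 1.02 and Socs7 at 0.613 of the NK level. The members that stood higher in ILC1 by more than 2-fold were therefore Cish, Socs1 and Socs2. Under tofacitinib the ratios of ILC1 to NK cells were 53.1 for Cish, 7.22 for Socs1, 6.77 for Socs2 and 2.92 for Socs3. That of Cish is imprecise, since it divides by a mean of 0.176 RPKM in tofacitinib NK cells. This mean corresponds to about 35 to 40 reads per library with the longest transcript. Each tofacitinib ILC1 library held more Cish, Socs1, Socs2 and Socs5 than any vehicle NK library. Each vehicle ILC1 library did so for Cish, Socs1 and Socs2 only. Socs5 was at 7.53 RPKM in vehicle replicate 2 of ILC1 and at 7.26 to 8.61 RPKM in vehicle NK cells.

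Whether a member responded differently in liver ILC1 and splenic NK cells was tested as the interaction in a joint fit of all 10 libraries, as the log2 change of ILC1 minus that of NK cells. Cell type and organ cannot be told apart in it. The fit also pools the variance of both, whose separate fits had a median SE of 0.49 in ILC1 and 0.10 in NK cells. For 0 of the 7 members tested did the difference of response pass in limma, 0 had an unadjusted p under 0.05, and 0.145% of the 8981 genes tested passed. It was 0.73 for Socs1 (SE 0.47, 95% interval -0.20 to 1.65), -0.52 for Socs2 (SE 0.46, 95% interval -1.41 to 0.37) and 0.54 for Socs3 (SE 0.45, 95% interval -0.34 to 1.43), with an adjusted p of 1 for each. For Socs4 to Socs7 the differences were -0.02 to 0.14. For Cish the difference was 0.51 in the wider gene set (SE 0.46, 95% interval -0.39 to 1.41, adjusted p = 1 in limma). The intervals of Socs1, Socs2, Socs3 and Cish each include 0 and also differences over 1 on the log2 scale, so that equal responses were not shown. With runs and replicate letters as a block, the difference of Socs1 passed, at 1.06 (adjusted p = 0.00477 in limma), a test in which 0.334% of the genes were called higher. This was the only 1 of 18 alternatives in which Socs1 passed, and leaving out single libraries gave 0.08 to 1.38. As in the block fit of Cish in ILC1, few residual degrees of freedom remain and the p rests on the variance shared across genes. In the separate fits with these blocks the change of Socs1 was -0.82 in ILC1 and -1.88 in NK cells.

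Other components of the pathway were described from gene lists. Of 13 other inhibitors of JAK-STAT signaling, among them the PIAS proteins and the phosphatases Ptpn1, Ptpn2 and Ptpn6, none was called in NK cells, where their median change was -0.02 beside -0.01 over all genes. At an unadjusted p under 0.05 in limma 6 of the 13 passed, beside 2209 of the 9472 genes tested in NK cells. In ILC1 Usp18, a brake on type I interferon receptors, was the only 1 of these 13 that was called. Usp18 fell by 1.89 on the log2 scale (SE 0.45, adjusted p = 0.0110 in limma), to 0.712 ± 0.136 RPKM in tofacitinib ILC1 (SD, n = 2) against 2.92 ± 0.639 RPKM in vehicle ILC1 (SD, n = 3). Its mean of log2(RPKM + 0.1) was -0.31 with tofacitinib and 1.58 with vehicle, so Usp18 also entered the test through the vehicle group alone. Within the shared runs its difference was -1.82 and -1.63, and with the run as a block its change was -1.72 (adjusted p = 3.40e-07 in limma). Among 10 measured genes of the ubiquitin ligase that the SOCS box recruits, none was called in ILC1 or NK cells by limma and 0 had an unadjusted p under 0.05, with a median change of -0.12 in each.

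The transcripts of Jak1 and Jak3, whose products tofacitinib inhibits, did not pass the test in either cell type. Of the cytokine receptors, 15 were tested in NK cells, where Il12rb1 and Il12rb2, the chains of the IL-12 receptor, fell by 0.50 and 0.48 and Il7r and Il10ra rose by 1.25 and 0.37. These were 4 of 15, beside 4.81% of all genes tested. With the replicate letter as a block the adjusted p of Il10ra was 0.0652 in limma, and the other 3 were still called. In ILC1 0 of 16 were called by limma, and 1 had an unadjusted p under 0.05. With the run as a block 2 of the 16 were called lower, Il2rb (-0.55) and Il12rb1 (-0.82), beside 2.34% of all genes tested, and Il7r was called higher (1.99), beside 1.99%. After scaling the libraries to 1 median Il12rb1 was called lower (-0.96), beside 2.18%, and Il7r higher (1.90), beside 0.491%. Il2rb, Il12rb1 and Il7r are named here for ILC1 after their values were seen. Within the shared runs the differences were -0.30 and -0.80 for Il2rb, -0.46 and -1.19 for Il12rb1, and 1.70 and 2.28 for Il7r.

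Of the genes that STAT5 is known to induce, all 9 that were tested in NK cells were called lower, with a median change of -1.16, beside 3.02% of all genes tested. Among them were Bcl2 (-2.67) and Bcl2l1 (-1.65), which protect from apoptosis, Gzmb (-1.54), which encodes granzyme B, and the kinase Pim2 (-1.49). In ILC1 the change was below 0 for all 11 tested. Of these, 3 were called lower, beside 0.278% of all genes tested, namely Gzmb (-2.58), Bcl2 (-2.43) and Pim2 (-2.13). The median over the 11 was -1.06, beside 0.01 over all genes tested in ILC1. Lta, named for this reason, entered the ILC1 test through the vehicle group alone. It had 1.19 and 1.85 RPKM in tofacitinib ILC1, against 2.75, 2.41 and 2.36 RPKM in vehicle ILC1. The count of 11 below 0 is therefore a description. Within the shared runs the differences were -2.38 and -2.69 for Gzmb, -2.23 and -2.56 for Bcl2, and -1.65 and -2.43 for Pim2. With the run as a block 8 of these 11 were called lower, beside 2.34% of all genes tested. These genes and their direction were known from earlier results of these data when the list was written, so they are no independent evidence of direction.

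The genes with the pattern most like each member were found by the Pearson correlation of log2(RPKM + 0.1) over the 10 libraries among 9856 other genes. The points share their cell type and library, and the ILC1 libraries also differ in their medians, so that the values are descriptions. For Socs1 they were Igtp (r = 0.981), Fdx1 (0.979) and Tmem106a (0.978). For Socs2 they were Nek6 (0.997), Hbegf (0.995) and St14 (0.994). For Socs3 they were the immediate early gene Egr1 (0.981), the chemokine Ccl4 (0.977) and Casp4 (0.960). Socs4 was most like Nbeal1 (0.976), Socs5 most like Smpdl3a (0.989), Socs6 most like Coq5 (0.990) and Socs7 most like Serinc3 (0.995). For Cish, outside the rule because of its level in NK cells and named after its values were seen, they were Gbp6 (0.989), Spin2c (0.987) and Chst2 (0.986). Among the members themselves, Cish and Socs2 were closest (r = 0.981 over 10 libraries), followed by Cish and Socs1 (0.955) and Socs1 and Socs2 (0.932). Socs4 to Socs7 followed each other within the 5 ILC1 libraries at r of 0.955 to 0.991, the libraries whose medians differed, and at -0.85 to 0.55 within the 5 NK libraries.

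Some marker lists of other cell types stood out in single libraries, and others differed between the treatment groups. In ILC1 the summed RPKM of 10 neutrophil markers was 167 and 3.36 with tofacitinib, against 8.29, 16.5 and 2.87 with vehicle. That of 8 erythroid markers was 249 and 9.67 with tofacitinib, against 13.02, 20.4 and 0.966 with vehicle. Tofacitinib replicate 1 was thus the highest library for both lists, and it is also the lower of the tofacitinib ILC1 libraries for every member from Socs1 to Socs7, but not for Cish. Its median over all genes tested was likewise the lower, at 8.94 RPKM against 12.7 RPKM in tofacitinib replicate 2. The summed B cell markers, 5 genes, were 13.2 to 22.0 with tofacitinib against 5.94 to 10.4 with vehicle in ILC1, the only marker list of another cell type whose groups did not overlap in ILC1. The 9 macrophage markers were at 0.549 to 1.46 with tofacitinib against 1.26 to 3.71 with vehicle. The 7 T cell markers were at 142 to 223 with tofacitinib against 130 to 259 with vehicle, and the 7 hepatocyte markers at 40.2 to 70.0 against 28.2 to 54.2. In NK cells the erythroid markers summed to 32.3 to 49.9 with tofacitinib against 44.5 to 203 with vehicle, and the B cell markers to 77.2 to 100.4 against 61.8 to 94.4. The groups of NK cells lay apart for the hepatocyte markers, at 15.7 to 17.3 against 13.1 to 15.2, of which Alb, Apoa1, Ttr and Fgb were under 0.1 RPKM in every library, and for 5 dendritic cell markers, at 1.66 to 1.86 against 1.31 to 1.51. They also lay apart for 5 measured ILC1 markers, which summed to 59.8 to 72.3 RPKM in tofacitinib NK cells against 32.4 to 38.3 RPKM in vehicle NK cells. Il7r is among these markers and averaged 48.3 RPKM with tofacitinib and 20.1 RPKM with vehicle. The 5 markers that NK cells and ILC1 share summed to 1645 to 1679 RPKM in tofacitinib NK cells against 2087 to 2337 RPKM in vehicle NK cells, again without overlap. Without tofacitinib replicate 1 the ILC1 change was -2.09 for Cish (adjusted p = 0.641 in limma), -0.37 for Socs1, -1.10 for Socs2 and 0.73 for Socs3, none of them called, against -1.94, -1.02, -1.27 and -0.33 with it. The part of these cells in the results was not tested.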

How the data were processed

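RNA of sorted cells was made into libraries with the NEBNext Ultra II kit and sequenced as 50-base single-end reads. The authors aligned the reads to mm10 (TopHat2 2.1.1) and computed RPKM with Partek. The submitters' processing notes name CASAVA 1.8.2. The RPKM values were deposited in a table per cell type, normalized separately. mm10 is a C57BL/6 genome, whereas the mice were BALB/c. Alignments per library and the run or replicate letter were taken from the deposited sample sheets. Columns of the authors' own comparisons (log2 means, ratios, p-values) were not used.

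Values were compared as log2(RPKM + 0.1) by the two-sided test of limma 3.58.1, run in R 4.3.3 with a trended prior variance. Genes with a group mean above 1 on that scale in at least 1 group were tested, and 1296 Mir and Snor names were left out. P-values were adjusted by the Benjamini-Hochberg method over all genes tested (threshold 0.05). The difference of response was the interaction in a fit of all 10 libraries. RPKM carries no counts: only 3.47% (ILC1) and 4.30% (NK) of ratios between low values came near ratios of small whole numbers (tolerance 0.1%), so reads could not be recovered. The spread between libraries, shared across genes by limma, served as the measure of precision. Read numbers given for Cish are estimates from RPKM, transcript length and alignments. Sequences came from RefSeq (GRCm38.p6) and gene positions from GENCODE on GRCm38.

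Per the authors, 2 treated or 3 vehicle mice were pooled per NK library. For ILC1 they give only a minimum number of mice pooled per group, so the number behind each ILC1 library is open. ILC1 libraries of the same run deviated together from their group means (r = 0.633 and 0.779). With only 2 treated libraries such values mirror each other. The replicate numbers do not follow the runs. In NK cells libraries with a shared letter had r of -0.143 and -0.157.

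All 8 members were named. From the lists, up to 4 called genes with the smallest p were named per cell type, and for each member the most similar genes by correlation. A gene of the lists is not reported here. Members, lists and rules were chosen with earlier results of these data known. Alternatives were the offset, the filter, scaling to 1 median, the variance model, blocks by number and by run or letter, a joint fit, another threshold, and leaving out each library.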

Additional observations from a re-analysis of the deposited data

How the results depend on the processing

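The direction of Cish in ILC1 and of Socs1 and Socs2 in both cell types was kept under every alternative run, and that of Socs3 under every one in NK cells. For Cish in NK cells only the set of genes tested was varied. That leaves its change at -2.45 by construction, so its direction there was not put to a check. Counts of calls depended on the processing. In NK cells, 3 members and 456 genes were called. With no filter on low values, or with the own variance of each gene, 0 members and 0 genes were called in NK cells (2751 and 1591 genes had an unadjusted p under 0.05 in limma), and the same held for ILC1 (284 and 130 genes) and for the difference of response (226 and 40 genes), where only the genes tested or the variance model changed. One fit of all 10 libraries called 1 member (Socs1) and 35 genes in NK cells, and 2 members and 125 genes in ILC1. A threshold of unadjusted p under 0.05 with a fold below 0.6 or above its inverse gave 157 genes in NK cells, and 2 members and 208 genes in ILC1. Scaling to 1 median called 2 members and 250 genes in ILC1, against 1 and 44, and 2 genes instead of 13 in the difference of response. The test of genes that pass in either cell type was chosen after seeing the data.

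With a replicate block by number, 1814 genes were called in NK cells, 2 genes and 0 members in ILC1 and 5 genes in the difference of response. The numbers do not pair the samples, so a call lost there is not read as a weaker effect. With a replicate block by run or letter, 3 members and 405 genes were called in ILC1, and 1 member and 47 genes in the difference of response. Under the block by number Socs5 in NK cells turned to -0.012 and the difference of Socs4 to 0.14. Under the block by letter Socs6 in NK cells turned to -0.018, and with scaling to 1 median the difference of Socs6 turned to -0.018. The causes were not tested.

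Leaving out each library in turn gave 26 to 797 genes and 1 to 3 members in NK cells, 8 to 141 genes and 0 to 2 members in ILC1, and 3 to 21 genes in the difference of response. The sign turned only for values not called. In NK cells the ranges were -0.018 to 0.23 for Socs4, -0.012 to 0.11 for Socs5 and -0.018 to 0.11 for Socs6. In ILC1 they were -1.40 to 0.73 for Socs3, -0.24 to 0.47 for Socs4, -0.093 to 0.45 for Socs5, -0.37 to 0.48 for Socs6 and -0.17 to 0.59 for Socs7. For the difference of response they were -0.52 to 1.61 for Socs3, -0.38 to 0.34 for Socs4, -0.13 to 0.41 for Socs5, -0.42 to 0.43 for Socs6 and -0.31 to 0.45 for Socs7. Cish in NK cells was not refitted without single libraries. With 2 tofacitinib libraries per cell type, a lone remaining library is assumed to vary like the others. The median SE over genes was 0.49 in ILC1 and 0.10 in NK cells, which limits what could be detected in ILC1.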
